A study of Danio rerio with 80 samples.

Results

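The genes ier2a and ier2b are the zebrafish copies of the immediate early response gene ier2. They are 2 of the 23473 entries of the expression table, where they were found by symbol. They are also 2 of the 10231 genes whose mean log2 level was at least that of 10 normalised reads. They had been selected on measured values, namely a difference among the 5 conditions in these same 80 brains, so their differences between conditions are given as a description, without a test.

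Ier2 is a small nuclear protein whose transcript is made within minutes of a stimulus, without new proteins having to be built first. It belongs to the immediate early genes, whose short-lived transcripts follow recent signalling, and in the brain recent neuronal activity, together with those of the egr, fos, jun, nr4a and npas4 families. In mammalian cells IER2 has been described as a partner of heat shock factor 1, and in zebrafish embryos Ier2 acts in fibroblast growth factor signalling during left-right patterning.

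The samples were whole brains of adult wild-type AB zebrafish, 1 fish per library, and all fish had been in 0.1% dimethyl sulfoxide from 6 to 96 hours after fertilisation. POP10 and POP70 fish had also received a mixture of persistent organic pollutants at 10 and 70 times human blood levels. PFOS10 and PFOS70 fish had received perfluorooctane sulfonic acid alone at 0.3 and 2.06 mg/L, and Control fish the solvent only. Each condition had 4 exposure replicates, and each replicate gave 2 females and 2 males, so a condition has 16 fish and each group of condition and sex has 8. The replicate number goes with age in every condition: 219, 226, 233 or 240 days after fertilisation, for numbers 6, 5, 4 and 3. Effects of age and of the day of sampling cannot be told apart.

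The libraries held 9.01 to 20.3 Mreads (1 Mread is 1000000 recovered reads), with a median of 12.1, and the condition means lay between 12.3 and 13.8. No 2 of the 80 libraries agreed within counting noise. The deposited levels are log2 values of reads per Mread on the authors' scale, written here as log2 RPM, and 1 unit is a doubling. The neuronal gene snap25a lay between 5235 and 8431 RPM and the myelin gene mbpa between 3564 and 13096 RPM in all 80 brains. The summed level of the 16 neuronal markers had a median of 18141 RPM in POP10, 17501 in POP70, 18043 in PFOS10, 17855 in PFOS70 and 18016 in Control, and no listed cell type marker was at 0 in all libraries. Genes of neighbouring tissue were present in some libraries: the rod gene rho had a median of 0.130 RPM but reached 288, and the pituitary gene pomca lay between 2.03 and 32.1 RPM. The summed pituitary and retina markers had a median of 62.5 RPM in POP10, 36.4 in POP70, 36.6 in PFOS10, 41.9 in PFOS70 and 22.9 in Control. Their log2 sum had an r of -0.0870 with ier2a and -0.0574 with ier2b over the 80 brains, and their part in the results was not tested. The PFOS70 fish of 226 days stood apart in clock genes: nr1d1, whose level follows the time of day, was at 7.62 log2 RPM there, while fish of that age had 3.26 in POP10, 3.38 in POP70 and 3.26 in PFOS10, and 3.52 in Control. In whole brain, fewer cells that express a gene and less RNA per cell cannot be told apart.

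On the GRCz11 assembly ier2a (ENSDARG00000099195) lies on chromosome 3 from 33761549 to 33762726 on the plus strand, and ier2b (ENSDARG00000086881) on chromosome 11 from 31038409 to 31039533 on the minus strand. They span 1178 and 1125 bases, and no other entry of the table overlaps either. Both copies sit beside a copy of the calcium channel gene cacna1a. The gene cacna1aa lies 10430 bases from ier2a, with nacc1a 7434 bases away on its other side, and cacna1ab lies 12074 bases from ier2b, where stx10 is the next entry on the other side.

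In the brains of POP10, POP70 and PFOS10 fish ier2a was at about double its Control level, and in PFOS70 fish it was close to Control. The level of ier2a in POP10 brains ran from 4.14 over a median of 5.12 to 7.17 log2 RPM. In POP70 brains it ran from 3.71 over 4.96 to 6.70, and in PFOS10 brains from 4.98 over 5.20 to 5.96. The PFOS70 brains had 3.78, 4.09 and 4.998 as lowest, median and highest, and the Control brains 3.28, 4.08 and 6.01. All groups overlapped, but every POP10 and every PFOS10 brain lay above the medians of PFOS70 and Control.

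For the second copy POP10, POP70 and PFOS10 again lay above PFOS70 and Control, by smaller distances. The lowest, median and highest levels of ier2b were 4.22, 5.26 and 7.09 log2 RPM in POP10 brains, 4.43, 5.13 and 6.58 in POP70 brains and 4.90, 5.28 and 6.08 in PFOS10 brains. They were 4.24, 4.58 and 4.95 in PFOS70 brains and 4.20, 4.63 and 5.68 in Control brains. The ier2b medians of POP10, POP70 and PFOS10 lay between 5.13 and 5.28 and those of PFOS70 and Control at 4.58 and 4.63, both within the spread between fish, so no order is read inside either set.

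**Figure D1:**
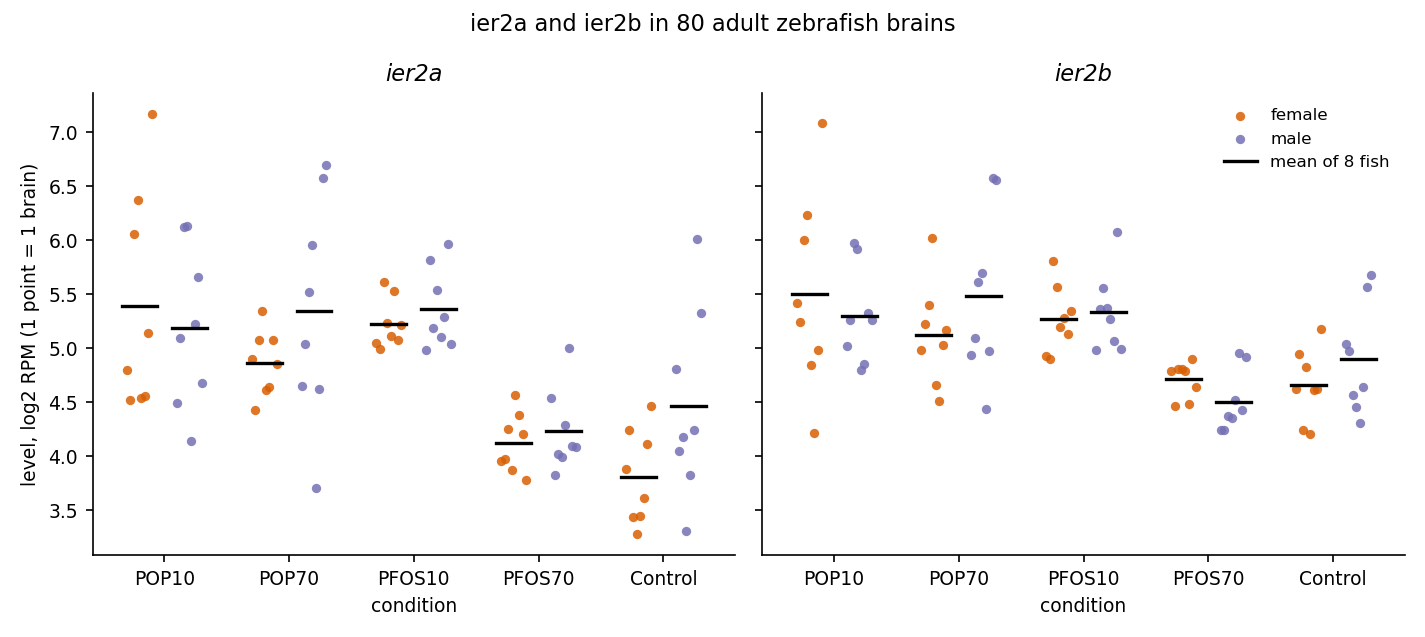
Level of ier2a (left) and ier2b (right) in each of the 80 brains, in log2 RPM, by condition and sex. Each point is 1 brain and each black line the mean of 8 fish; the ier2a levels of the 16 PFOS10 brains sit between 4.98 and 5.96, and the 16 PFOS70 brains between 3.78 and 4.998.

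As means, ier2a stood at 5.29 ± 0.86 in POP10, 5.11 ± 0.78 in POP70, 5.30 ± 0.30 in PFOS10, 4.18 ± 0.32 in PFOS70 and 4.14 ± 0.75 log2 RPM in Control (SD, n = 16 fish each). The log2 difference of ier2a from Control was 1.16 ± 0.22 in POP10 (SE; 2.23-fold), 0.97 ± 0.22 in POP70 (1.96-fold) and 1.16 ± 0.22 in PFOS10 (2.23-fold). In PFOS70 it was 0.04 ± 0.22, with a 95% confidence interval of -0.40 to 0.48. The means of ier2b were 5.40 ± 0.70, 5.30 ± 0.65, 5.30 ± 0.33 and 4.61 ± 0.25 in the same 4 exposures and 4.78 ± 0.43 in Control. Its log2 differences from Control were 0.62 ± 0.18 in POP10, 0.53 ± 0.18 in POP70 and 0.52 ± 0.18 in PFOS10, against -0.17 ± 0.18 in PFOS70, where the interval ran from -0.52 to 0.18. Without the fish of 226 days the ier2b differences were 0.33 in POP10, 0.31 in POP70 and 0.35 in PFOS10. The SE and intervals take fish as independent, though the 16 fish of a condition come from 4 exposure replicates. With 1 consensus correlation for all genes between fish of an exposure replicate (0.236), the SE was 0.27 for ier2a and 0.22 for ier2b. The correlation of each gene alone was not estimated, so these SE may still be too small. The SD of the 4 replicate means of ier2a was 0.75 in POP10, 0.65 in POP70, 0.08 in PFOS10, 0.25 in PFOS70 and 0.63 in Control.

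Over all genes, limma called 2 in POP10 against Control (0.0195% of the tested genes; 405 had an unadjusted p under 0.05), 0 in POP70 (0%; 159 unadjusted), 1 in PFOS10 (0.00977%; 1079 unadjusted) and 0 in PFOS70 (0%; 564 unadjusted). With the replicate number as a paired block the calls were 8 in POP70 and 6 in PFOS10. With a correlation between fish of an exposure replicate, and again without the fish of 226 days, there were 0 calls in each of the 4 exposures. These counts include the contrast on which ier2a and ier2b were selected, and nothing is read from them about the pair.

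The mixtures contain PFOS, and PFOS10 and PFOS70 carry the amounts present in POP10 and POP70, so the conditions can be set against each other at matched PFOS. At the lower level POP10 minus PFOS10 was -0.00 ± 0.22 for ier2a (95% interval -0.45 to 0.44) and 0.10 ± 0.18 for ier2b. At the higher level POP70 minus PFOS70 was 0.93 ± 0.22 for ier2a and 0.70 ± 0.18 for ier2b. Brains of PFOS70 fish had lower values than those of PFOS10 fish: PFOS70 minus PFOS10 was -1.12 ± 0.22 for ier2a and -0.70 ± 0.18 for ier2b. Between the mixtures, POP70 minus POP10 was -0.19 ± 0.22 for ier2a and -0.10 ± 0.18 for ier2b. These differences are part of what the genes were selected on and were not tested. Their SE also take fish as independent.

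The 4 exposure replicates of a condition, each the mean of 4 fish, show where the differences lie. From 219 to 240 days the ier2a means were 4.72, 6.17, 4.61 and 5.66 log2 RPM in POP10 and 4.75, 5.47, 4.39 and 5.80 in POP70. In PFOS10 they were 5.21, 5.39, 5.26 and 5.32, which is a spread of 0.079 (SD, n = 4). In PFOS70 they were 4.07, 4.03, 4.56 and 4.04, and in Control 4.24, 3.55, 3.78 and 4.98. All 4 PFOS10 replicates lay above all 4 Control replicates, while 2 of the 4 POP10 and 2 of the 4 POP70 replicates did, and no PFOS70 replicate did.

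Set against the Control fish of the same age, ier2a was higher in every replicate of POP10, POP70 and PFOS10, by amounts that differed between ages. At 226 days the difference was 2.63 in POP10, 1.93 in POP70 and 1.85 in PFOS10, which are the highest values of these exposures. At 240 days, where Control itself stood highest, it was 0.68, 0.82 and 0.34. The PFOS70 differences went both ways, with -0.17, 0.49, 0.78 and -0.94 from 219 to 240 days. Without the PFOS70 fish of 226 days, which stood apart in clock genes, the ier2a difference of PFOS70 from Control was 0.09 and that of ier2b -0.16. Without all fish of 226 days the ier2a difference was 0.67 in POP10 in place of 1.16 and 0.65 in POP70 in place of 0.97. It was then 0.93 in PFOS10 in place of 1.16, and -0.11 in PFOS70 in place of 0.04.

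The ier2b replicate means ran in parallel. From 219 to 240 days they were 5.24, 6.03, 4.68 and 5.67 log2 RPM in POP10, 5.06, 5.68, 4.64 and 5.83 in POP70, and 5.04, 5.57, 5.20 and 5.39 in PFOS10. They were 4.43, 4.58, 4.69 and 4.72 in PFOS70 and 4.89, 4.52, 4.44 and 5.26 in Control. Again all replicates of POP10, POP70 and PFOS10 were above the Control fish of their age, by 0.13 to 1.51, with the highest value of each exposure at 226 days. In each of these 3 exposures 2 of the 4 replicates lay above all Control replicates, and none of PFOS70 did.

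**Figure D2:**
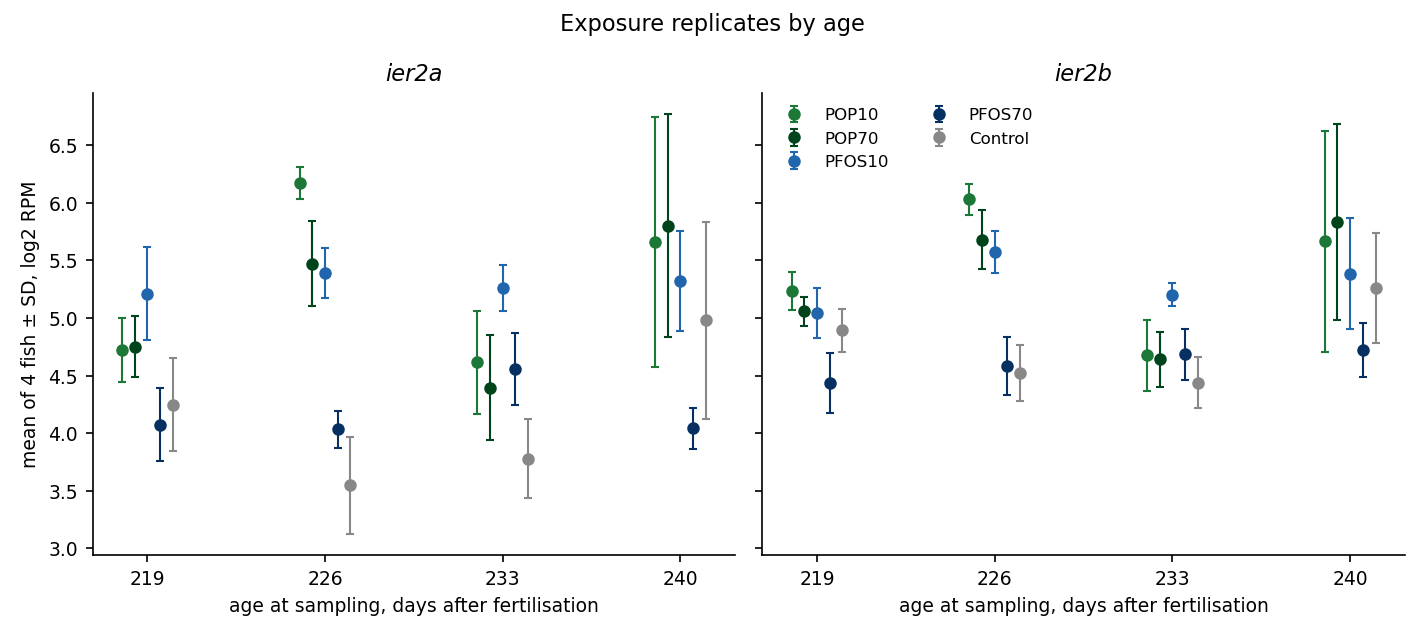
Mean level of ier2a (left) and ier2b (right) in each exposure replicate against age in days after fertilisation, in log2 RPM, coloured by condition. Each point is the mean of 4 fish and the bars are SD; at 226 days the ier2a mean is 6.17 in POP10 and 3.55 in Control, and at 240 days it is 5.66 and 4.98.

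Single fish could lie far from the others of their exposure replicate. The highest ier2a level of all 80 brains, 144 RPM or 1108 reads, and the highest ier2b level, 136 RPM or 1046 reads, belonged to the same fish, a POP10 female of 240 days. The other POP10 female of that replicate had 278 reads of ier2a and 249 of ier2b, so the pair was 2.03 apart in log2 for ier2a and 2.10 for ier2b. The median gap between 2 fish of the same sex and replicate was 0.376 for ier2a and 0.217 for ier2b. At 240 days both POP70 males were also high, with 6.58 and 6.70 log2 RPM of ier2a, as was 1 Control male at 6.01. The lowest ier2a level was 9.70 RPM, in a Control female of 226 days, which puts 14.8-fold between the extremes, and ier2b ranged over 7.40-fold from 18.4 RPM.

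The spread between fish of 1 exposure replicate was large for both genes. It was 0.486 for ier2a and 0.378 for ier2b (SD of log2 values), against a median of 0.234 over all tested genes, and 85.5% and 77.5% of the genes had a lower one. It differed by condition: for ier2a it was 0.608 in POP10, 0.583 in POP70, 0.331 in PFOS10, 0.255 in PFOS70 and 0.546 in Control. For ier2b it was 0.515, 0.466, 0.284, 0.243 and 0.304 in the same order. Fish exposed to PFOS alone were the most alike in both genes, which was not tested.

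Of the variation of ier2a over the 80 brains, condition took 41.6%, the replicate number 9.72% and their combination 22.4%. Sex took 2.06%, and 13.0% lay between 2 fish of the same sex and replicate. For ier2b condition took 30.6%, number 19.9%, their combination 18.0%, sex 0.214% and pairs of like fish 16.6%. The median gene had 4.45% with condition, 15.9% with number, 15.9% with their combination and 38.3% between like fish. The shares of a gene add up to a fixed whole, so a high share of condition leaves less for the others. Nothing is read from the low shares between like fish. The share of condition is what the genes were selected on, and the share of the combination holds the steps from Control that differed between ages.

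The levels of the 2 copies varied together from fish to fish. Over the 80 brains Pearson's r between ier2a and ier2b was 0.882 and Spearman's rho 0.864, and over the 20 replicate means r was 0.941. These values hold the differences between conditions on which both were selected. The deviations of each fish from the mean of its own exposure replicate do not, and there r was 0.743 and rho 0.585. Within conditions r was 0.890 in POP10, 0.917 in POP70, 0.761 in PFOS10, 0.265 in PFOS70 and 0.847 in Control (n = 16 fish each). By age r was 0.612 at 219 days, 0.930 at 226, 0.785 at 233 and 0.932 at 240 (n = 20 fish each). All these fish share libraries and sequencing depth between the 2 genes, so the values are a description.

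**Figure D3:**
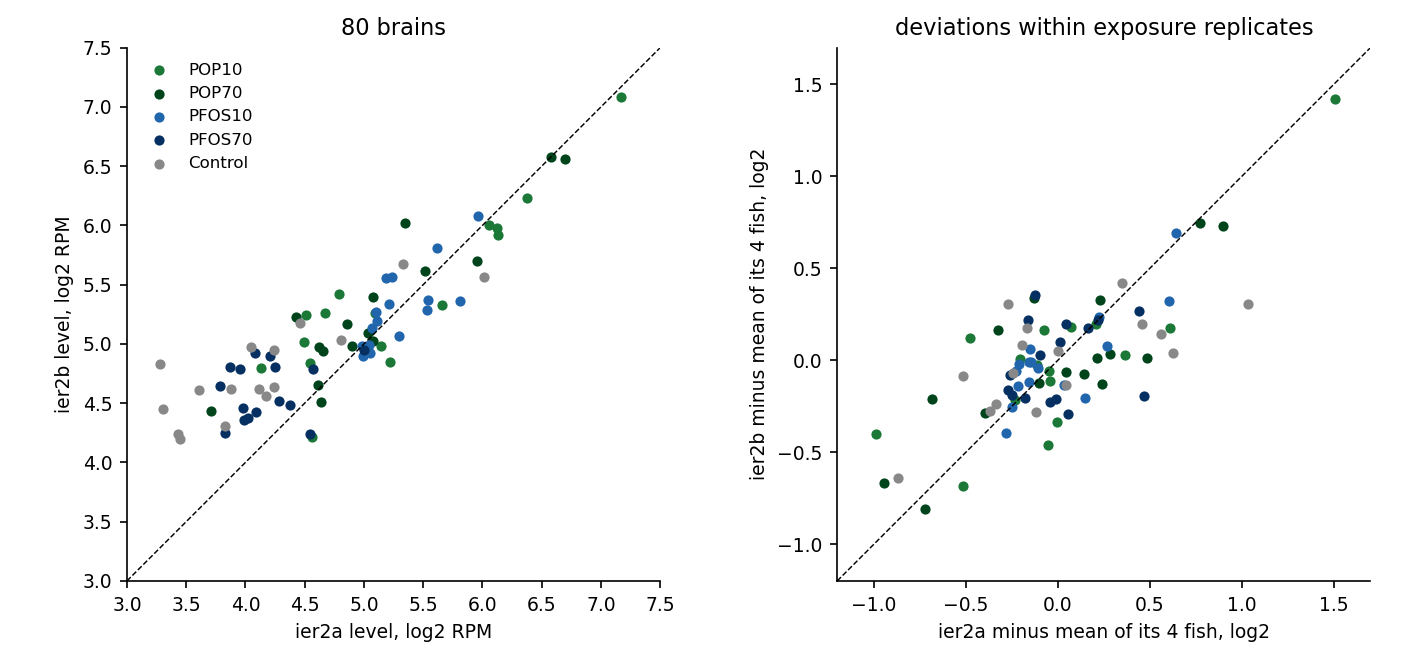
Level of ier2b against ier2a in log2 RPM for 80 brains (left), and the same as deviations from the mean of the 4 fish of each exposure replicate (right), coloured by condition; the dashed line marks equal values. Points follow the line on both sides (r = 0.882 and 0.743), and most PFOS70 and Control brains lie above it on the left, with less ier2a than ier2b.

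The balance between the copies differed by condition. It is built from the differences on which the genes were selected, and was not tested. The log2 difference of ier2a minus ier2b in a brain averaged -0.11 ± 0.40 in POP10, -0.20 ± 0.32 in POP70, -0.01 ± 0.22 in PFOS10, -0.43 ± 0.35 in PFOS70 and -0.64 ± 0.44 in Control (SD, n = 16 fish each). The exposure replicate means of this difference ran from -0.51 to 0.14 in POP10, -0.31 to -0.03 in POP70 and -0.18 to 0.17 in PFOS10. They ran from -0.68 to -0.13 in PFOS70 and from -0.97 to -0.28 in Control. ier2a stood above ier2b in 9 of the 16 POP10 brains, 4 in POP70, 7 in PFOS10, 2 in PFOS70 and 1 in Control. Per kilobase of gene span, ier2a reached 40.0 ± 28.2 RPM in POP10, 34.0 ± 22.0 in POP70, 34.1 ± 7.88 in PFOS10, 15.7 ± 3.97 in PFOS70 and 17.3 ± 11.96 in Control. On the same scale ier2b reached 42.5 ± 25.1, 39.0 ± 20.4, 36.0 ± 8.97, 22.0 ± 3.71 and 25.5 ± 8.44. The copies thus had like levels per length where both were high, and ier2b the higher level where both were low.

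Sex was not used in choosing the genes and could be tested. Over the 20 exposure replicates ier2a averaged 4.68 log2 RPM in females and 4.92 in males, and ier2b 5.05 in females and 5.11 in males. The female minus male difference of ier2a was -0.24 ± 0.14 (SE; 95% interval -0.52 to 0.04), which did not pass (limma, adjusted p = 0.540). Males were higher in 14 of the 20 replicates, with a two-sided permutation p of 0.0761 over their differences (0.114 adjusted over the 3 quantities tested this way). For ier2b the difference was -0.05 ± 0.11 (limma, adjusted p = 0.881), females were higher in 11 of 20 replicates, and the permutation p was 0.640. Limma called 141 genes between the sexes, 1.38% of those tested, 25 higher and 116 lower in females, and 282 with the exposure replicate as a block.

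The ratio of the copies differed between the sexes by a small amount that did not hold in every subset of ages. The log2 difference of ier2a minus ier2b averaged -0.37 in females and -0.19 in males, and the female value was lower in 16 of 20 replicates. The difference of -0.18 (SD 0.302, n = 20 replicates) had a two-sided permutation p of 0.0149, or 0.0448 adjusted over the 3 quantities. It lay between -0.66 and 0.58 in single replicates, and all 4 Control replicates were below 0. Without 1 age at a time, an alternative chosen after seeing the data, it was -0.19 without 240 days, -0.26 without 233, -0.14 without 226 and -0.15 without 219. The adjusted permutation p was then 0.0824, 0.00311, 0.201 and 0.314, so the call was lost in 3 of the 4 cases.

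**Figure D4:**
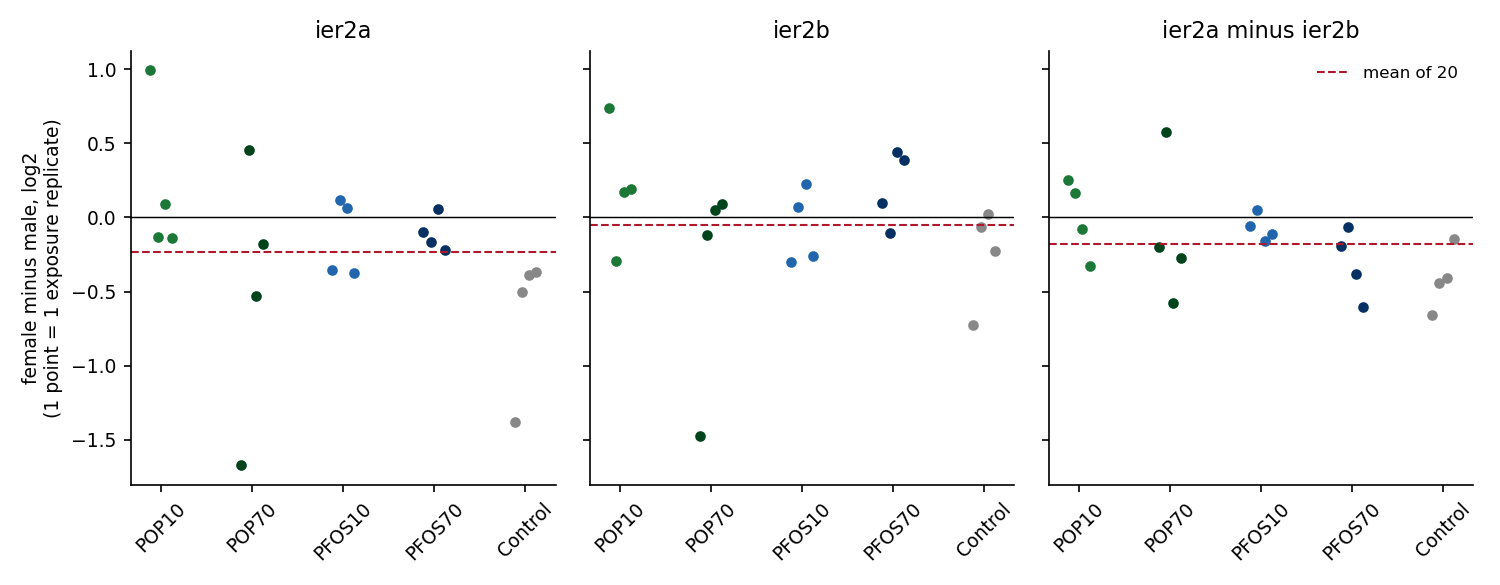
Female minus male difference in log2 for ier2a, ier2b and the ratio of ier2a to ier2b, by condition. Each point is 1 exposure replicate (mean of 2 females minus mean of 2 males) and the dashed line is the mean of the 20; for the ratio 16 of the 20 points lie below 0, for ier2a 14 and for ier2b 9.

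In Control fish alone the female minus male difference was -0.66 ± 0.31 for ier2a and -0.25 ± 0.25 for ier2b (limma, adjusted p = 1.0 for each). No gene was called there (0%; 154 had an unadjusted p under 0.05). The ier2a difference from Control was 1.59 in females and 0.72 in males for POP10, 1.06 and 0.88 for POP70, 1.42 and 0.90 for PFOS10, and 0.32 and -0.24 for PFOS70 (SE 0.31 each). For ier2b it was 0.85 and 0.40, 0.47 and 0.58, 0.61 and 0.43, and 0.05 and -0.40 (SE 0.25 each). The interaction of exposure with sex was highest for ier2a in POP10, at 0.86 ± 0.45. Without the fish of 240 days it was 0.360 for POP10, 0.355 for PFOS10, 0.335 for POP70 and 0.309 for PFOS70 (SE 0.43 each). The size of the POP10 interaction thus rests on that age, and its lead was then far smaller than the SE. None of the 8 interactions of the 2 genes passed (limma, adjusted p from 0.978 to 1.0). No gene passed in any of the 4 interactions (0% each), where 246 genes had an unadjusted p under 0.05 for POP10, 205 for POP70, 186 for PFOS10 and 211 for PFOS70.

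Among the ages, ier2a averaged 4.60 ± 0.45 log2 RPM at 219 days, 4.92 ± 1.09 at 226, 4.52 ± 0.53 at 233 and 5.16 ± 0.70 at 240 (SD, n = 5 exposure replicates each). Its difference among the ages did not pass (limma's F test on replicate means, adjusted p = 0.193), nor did any of the 6 pairs (adjusted p from 0.0919 to 0.864). The means of ier2b were 4.93 ± 0.30, 5.28 ± 0.68, 4.73 ± 0.28 and 5.37 ± 0.43, and its difference passed (limma's F test, adjusted p = 0.0300). Of its 6 pairs of ages 1 passed: fish of 240 days were higher than fish of 233 days by 0.64 ± 0.18 (limma, adjusted p = 0.0155).

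Neither call sets ier2b apart. The F test called 46.1% of all tested genes, and the contrast of 240 with 233 days 36.8%. The other pairs called 17.1% (240 with 226 days), 25.8% (240 with 219), 17.1% (233 with 219), 6.75% (226 with 219) and, for 233 with 226 days, 0% (1650 genes at an unadjusted p under 0.05). The ier2b call among ages was lost without the fish of 240, of 233 or of 219 days (adjusted p = 0.112, 0.0946 and 0.0593). The clock gene nr1d1 stood at 7.22, 4.21, 5.08 and 7.16 log2 RPM from 219 to 240 days, where the 226-day mean joins 4 replicates between 3.26 and 3.52 and PFOS70 at 7.62. The mean log2 level of the neuronal markers was 9.16, 8.95, 9.11 and 8.74. Their part in the differences among ages was not tested. Over the 80 brains nr1d1 had an r of -0.0844 with ier2a and -0.0858 with ier2b. The clock gene per1b had -0.165 and -0.191.

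Most of the genes most like ier2a over the 80 brains were immediate early genes. The r over the 80 brains hold the differences between conditions on which ier2a and ier2b were selected. The highest Pearson r was that of npas4a, a transcription factor switched on by neuronal activity, at 0.900, followed by ier2b itself, egr1 at 0.867, egr4 at 0.863, the uncharacterised zgc:122979 at 0.848 and fosab at 0.835. The antiproliferative gene btg2 had 0.795 and the nuclear receptor gene nr4a1 0.767. On the deviations within exposure replicates zgc:122979 came first with 0.795, before npas4a with 0.791, the kinase gene pim1 with 0.783, egr4 with 0.770 and ier2b. The lowest r over the 80 brains were those of vps37c at -0.38, mtss1 at -0.37 and rwdd1 at -0.36.

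For ier2b the list was nearly the same. Over the 80 brains npas4a had 0.921, fosab 0.872, egr1 0.860, btg2 0.845, nr4a1 0.839, zgc:122979 0.837 and egr4 0.821, and on the deviations npas4a had 0.866, pim1 0.862, btg2 0.822, nr4a1 0.782 and fosab 0.759. Apart from the other copy, 8 genes passed an r of 0.7 with both, of 8 for ier2a and 10 for ier2b, and no gene was below -0.7. The median r over all tested genes was -0.00071 with ier2a and -0.0073 with ier2b. The lowest were serpina10a at -0.40, abhd10a at -0.39 and rbm48 at -0.36. Depth, the neuronal, glial, vascular and blood cell marker means and the first component of all genes had an r between -0.14 and 0.12 with either gene. The mean of 10 heat shock genes had -0.21 with ier2a and -0.32 with ier2b.

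The 5 lists of early response genes hold 41 tested genes besides ier2a and ier2b. Against Control 29 of them were higher in POP10 fish, 31 in POP70 fish, 30 in PFOS10 fish and 24 in PFOS70 fish, with median log2 differences of 0.09, 0.15, 0.14 and 0.03. The medians over all tested genes were 0.01, 0.00, 0.03 and 0.02, and 53.4%, 52.3%, 62.6% and 57.7% of them were higher. The PFOS70 count thus lay near the share of all genes. The single call among these 41 was egr1, a zinc finger transcription factor, which rose by 0.70 ± 0.12 in POP10 (limma, adjusted p = 0.00202). Without the fish of 226 days egr1 rose by 0.54 and was no longer called (adjusted p = 0.959), nor was it with a correlation between fish of an exposure replicate (adjusted p = 0.147). Among the 43 genes ier2a ranked 2nd for POP10, 3rd for POP70, 3rd for PFOS10 and 20th for PFOS70 by its difference, and ier2b 10th, 11th, 8th and 35th. The ranks rest on the differences for which the pair was selected, so nothing is read from them. All 4 exposures share the Control fish.

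The 5 genes of the egr and npas4 families were all higher in POP10, POP70 and PFOS10, with medians of 0.76, 0.56 and 0.75, and 4 were higher in PFOS70, with 0.12. Over all tested genes 53.4%, 52.3%, 62.6% and 57.7% were higher in POP10, POP70, PFOS10 and PFOS70. The difference of npas4a was 1.33, 1.43, 1.44 and 0.12 ± 0.33 in the 4 exposures, and that of egr4 1.12, 0.56, 0.81 and -0.16 ± 0.25. None of these passed. Of the 6 fos and jun genes, which form the AP-1 factor, 5, 5, 6 and 3 were higher and none was called. Of the 3 nr4a genes 3, 2, 2 and 2 were higher, and nr4a1, a nuclear receptor without a known ligand, had 1.15, 1.68, 1.34 and 0.38 ± 0.35 and did not pass. The other tested genes listed with an ier symbol had smaller differences than the pair in POP10, POP70 and PFOS10, and none was called. ier5 had 0.22, 0.15, 0.14 and 0.03 ± 0.08, also above Control and PFOS70 in the first 3 exposures. The 3 tested genes ier5, ier5l and ier3ip1, which share the symbol and need not be 1 family, had medians of 0.13, 0.04, 0.05 and 0.03. All 3 are counted among the 41 early response genes.

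**Figure D5:**
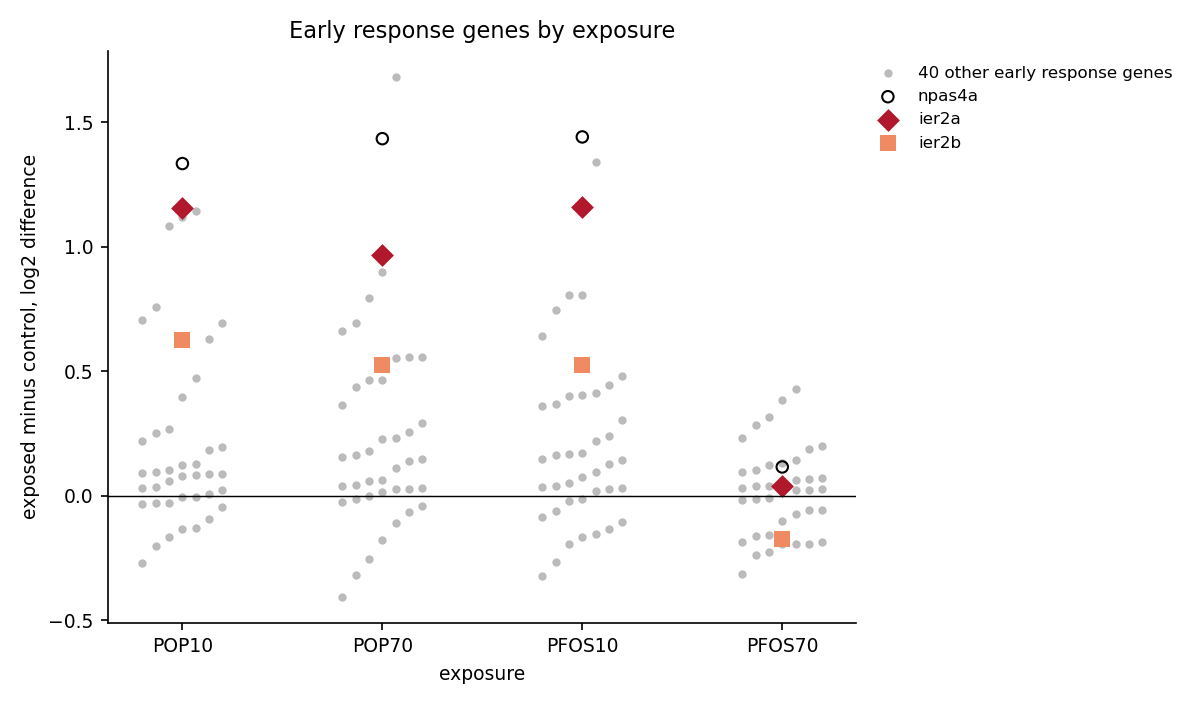
Log2 difference from Control of 43 early response genes in each exposure. Each grey point is 1 of the other genes, the diamond is ier2a, the square ier2b and the open circle npas4a; ier2a stands at 1.16, 0.97, 1.16 and 0.04 and ier2b at 0.62, 0.53, 0.52 and -0.17 in POP10, POP70, PFOS10 and PFOS70.

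The tested neighbours of the copies gave no call against Control, nor did the serum response, heat shock and clock lists. The list counts stand beside 53.4%, 52.3%, 62.6% and 57.7% of all tested genes higher in POP10, POP70, PFOS10 and PFOS70. Of 11 tested serum response factor, CREB and kinase genes 9 were higher in POP10 fish, 6 in POP70, 10 in PFOS10 fish and 9 in PFOS70, with medians of 0.06, 0.02, 0.15 and 0.06 and no call. Of the 10 heat shock genes 5, 6, 5 and 8 were higher, with medians of 0.03, 0.01, -0.00 and 0.10 and no call. Of the 23 clock genes 11, 7, 12 and 19 were higher, with medians of -0.01, -0.10, 0.04 and 0.23 and again no call, and PFOS70 here includes its 226-day fish. The calcium channel genes beside the copies were not called: cacna1aa had 0.25, 0.12, 0.53 and 0.17 ± 0.28 in the 4 exposures and an r of 0.170 with ier2a over the 80 brains, and cacna1ab had 0.13, 0.11, 0.61 and 0.32 ± 0.26 and an r of 0.0990 with ier2b (limma, adjusted p from 0.456 to 1.0).

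Between the sexes some of the genes most like the pair passed where the pair did not. Of the 41 early response genes 33 were lower in females, with a median of -0.09 against -0.02 over all tested genes, and 5 were called lower. Over all 10231 tested genes 40.6% were higher in females, and 116 were called lower. egr4 fell by 0.78 ± 0.16 (limma, adjusted p = 0.00241) and fosab by 0.71 ± 0.19 (adjusted p = 0.0271). The others were the blood flow and early response factor klf2a at -0.44 ± 0.07 (adjusted p = 1.17e-05), the phosphatase gene dusp1 at -0.52 ± 0.10 (adjusted p = 0.000651) and gadd45ba at -0.37 ± 0.10 (adjusted p = 0.0297). The call of egr4 was lost without the fish of 219 days (adjusted p = 0.0782) and that of dusp1 without those of 233 days (0.0511). Leaving out an age also ended the calls of fosab (240, 233 or 219 days) and of gadd45ba (any age), with adjusted p between 0.0710 and 0.247, and fosab also missed the threshold with library weights, quantile normalisation or voom (adjusted p from 0.0586 to 0.0642). npas4a, the gene most like both copies, was at -0.10 ± 0.21 (adjusted p = 0.878) and egr1 at -0.03 ± 0.08 (adjusted p = 0.906). Whether these sex differences differ from those of ier2a and ier2b was not tested. In females 9 of 10 oligodendrocyte markers were lower, 5 of them called, and 8 of 8 erythrocyte markers, 1 of them called; their part in the sex differences was not tested.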

How the data were processed

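Brains were read as poly-A libraries (NEBNext Ultra, HiSeq), per the labels' protocols. The tools listed in the submitters' processing notes, with no role given, are STAR 2.5.4b, Trim Galore 0.4.5, DESeq2 and R 3.5.0, with the build GRCz11; the counting step and strand use are not given in the sources used here, so reads shared by similar genes cannot be judged. The deposited values are log2 normalised expression, per the file headers. They were whole reads times a factor per library (100% of values within 0.02 read, up to 5000 reads), so reads were recovered; 0 reads stand as 0.9 read. How the factor was set is not known, and no length correction was seen. Intervals cover counting and fish, not the factor.

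Genes whose mean log2 level over the 80 libraries was at least that of 10 RPM were tested. They were fitted with limma 3.58.1 in R 4.3.3 (10 groups of condition and sex, mean-variance trend, two-sided, Benjamini-Hochberg over 10231 genes, threshold 0.05). Ages were tested on 20 exposure replicate means. Sex was also tested with 100000 sign flips of the 20 differences within replicates. Fish were the replicates, and the 4 fish of an exposure replicate share 1 exposure (consensus correlation over all genes 0.236). The p-values, SE and intervals taken over fish therefore reflect how fish vary, not how exposure replicates vary. The sex of a fish was read from a letter in its title. Numbers pair the samples because each has 1 age in all conditions; same-numbered replicates correlated with a median r of 0.369 over 40 pairs, from -0.185 to 0.825, 36 of them over 0.1. The members, the gene lists, the rule for named genes and the tests were chosen with earlier results of these data known. Named genes are the 8 highest and 3 lowest by r, the 5 highest on deviations, and the list members that passed or stand for their list. Simulated data with independent noise per fish served to check the fits. They held no correlation between fish of an exposure replicate, so they could not check the fits under it. No sequence was used here.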

Additional observations from a re-analysis of the deposited data

Results flagged for a closer look

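One value was singled out because it stood apart from the others of its group. The ier2a mean of the PFOS70 exposure replicate of 233 days was 4.56 log2 RPM, while the other 3 PFOS70 replicates lay between 4.03 and 4.07, and its gap took 0.921 of the range of the 4. It was 1 of 30 groups examined, and chance alone gives about 1 in 20.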

How the results depend on the processing

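Of 432 alternative values for 35 results 388 stayed on their side of the threshold or within the spread. Among these, 7 values for ier2a or ier2b took the other sign, none of them a called one: ier2a in PFOS70, the ier2b sex difference and the POP70 interaction of each gene. The ier2a difference from Control lay between 0.67 and 1.38 in POP10, 0.65 and 1.12 in POP70, 0.93 and 1.43 in PFOS10, and -0.21 and 0.36 in PFOS70. That of ier2b lay between 0.33 and 0.76, 0.31 and 0.65, 0.35 and 0.66, and -0.31 and -0.05. The sex difference of ier2b ranged over -0.13 to 0.08 and never passed. With single fish as the unit the ier2a range of 0.64 among ages passed (limma, adjusted p = 0.00558); leaving out an age gave ier2b ranges from 0.44 to 0.64. The sex difference of the ratio lay between -0.26 and -0.14 leaving out an age. Genes called between the sexes were 278 with a correlation between fish of an exposure replicate and 430 with library weights. They were 32 at 100 RPM or more, 282 with the exposure replicate as a block, and 25 to 173 leaving out an age. Genes called among ages, 4713 in the main fit, were 1353 at 100 RPM or more and 2708 with limma's voom on recovered reads. They were 2414 to 3986 leaving out an age (4940 without the PFOS70 fish of 226 days), 6595 with library weights and 6745 without a minimum level. Calls against Control ranged over 0 to 7 in POP10, 0 to 8 in POP70 and 0 to 6 in PFOS10, and those between Control sexes over 0 to 2. The replicate block changed no call of ier2a or ier2b for sex or its interactions. The causes were not tested. At 93 to 1378 reads a brain, depth limits single fish of the lowest groups most.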
